A study of Mus musculus with 24 samples.

Results

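The doxorubicin response of wild-type mouse cardiomyocytes was followed from 16 h to 72 h by a difference of differences, the change from PBS to doxorubicin at 72 h minus the same change at 16 h. It was computed for 19243 genes from the 12 arrays titled wild type, among 24 arrays in all. There were 4 groups of 3 arrays: PBS at 16 h, doxorubicin at 16 h, PBS at 72 h and doxorubicin at 72 h. All 12 arrays were titled wild type and labelled as male mice of 6 weeks on a mixed 129SvEv/C57BL/6 background, although 2 of them carry another genotype characteristic, as described below. Mice received 25 mg/kg doxorubicin or PBS into the peritoneum, live cardiomyocytes were isolated by heart perfusion, and 100 ng of total RNA per sample was labelled with Cy3 and hybridised to Agilent 1-colour arrays. Each time was set against its own PBS arrays because the wild-type arrays of 16 h shared slide 1, whereas those of 72 h lay on slides 3 and 4. Time and slide therefore cannot be told apart in the levels, and a slide effect on both treatments of a time cancels in the differences. Nothing in the labels tells whether the arrays of a group came from different animals. The p-values therefore reflect the spread among the samples as deposited, which may be partly technical.

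Doxorubicin is an anthracycline used against cancer whose use is limited by damage to the heart. It traps type II topoisomerases on DNA, which leaves DNA breaks, and it takes part in redox cycling with iron. DNA breaks activate the transcription factor p53, whose targets stop the cell cycle, repair DNA or start apoptosis. Iron balance in cells is kept largely after transcription, through proteins that bind the mRNAs of iron uptake and storage genes. The cardiomyocyte is a largely postmitotic cell, so cell cycle transcripts are usually low in the adult heart.

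Expression levels below are log2 processed signals minus the 75th percentile of the array, and changes are differences of group means on that log2 scale ± SE, with 3 arrays per group. The number of arrays limits the precision, and on the 12 arrays the 75th percentile of the processed signal lay between 145.7 and 280.9 intensity units. All 18 cardiomyocyte markers, among them those of the sarcomere, were well above background on all 12 arrays. The arrays did not match their labels in every respect. Ddx3y, a gene of the Y chromosome, exceeded background clearly on 5 arrays, namely all 3 PBS arrays and doxorubicin replicate 1 of 16 h and PBS replicate 4 of 72 h, whereas the other 7 had Xist. The doxorubicin arrays of 16 h and the PBS arrays of 72 h thus differed in Y-linked signal within their group, so neither group came from 1 animal. Y-linked signal also differed between treatments. At 16 h all 3 PBS arrays but only doxorubicin replicate 1 had Ddx3y, and at 72 h only PBS replicate 4 did. Apparent sex is therefore partly confounded with doxorubicin at both times. The genotype characteristic of PBS replicate 3 and doxorubicin replicate 1 of 16 h goes against their titles, which were used here. An Esr1 probe read 8.41 and 8.58 on PBS replicates 2 and 3 of 72 h and -6.18 on replicate 4. PBS replicate 4 of 72 h also stood apart as a whole, with a correlation of 0.969 and 0.963 to the other PBS arrays of 72 h, which had 0.992 between them. Results are therefore also given without single arrays where that changes them.

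Most of the early response was smaller at 72 h, and a minority could be placed with confidence. At 16 h 2944 genes (15.3% of those tested) passed an adjusted p of 0.05 in limma, 1470 higher (7.64%) and 1474 lower (7.66%). At 72 h 271 genes (1.41%) passed, 105 higher (0.546%) and 166 lower (0.863%). The difference between both responses passed for 186 genes (0.967%), 74 of them higher (0.385%) and 112 lower (0.582%) at 72 h relative to 16 h. At an unadjusted p under 0.05 the numbers were 5722, 4113 and 2886. Of the 2944 early genes, 2391 (81.2%) had the same sign of change at 72 h and 94.1% had a smaller one. The 1470 genes that rose at 16 h had a median change of 1.17 at 16 h and 0.26 at 72 h, and the 1474 that fell had medians of -1.15 and -0.45. These genes were selected on their 16 h change, so part of the drop is built into the choice. Among the 271 genes that passed at 72 h, 93.4% had the same sign at 16 h and 24% had a smaller change at 72 h. Across all genes the median change was -0.02 at 16 h and -0.07 at 72 h, and the changes at both times, which share no array, had a Pearson correlation of 0.43 across genes, which are not independent replicates.

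Genes were grouped by the 3 tests. A gene faded if it passed at 16 h, did not pass at 72 h and its difference passed towards 0. A gene persisted if it passed at both times in 1 direction and its difference did not pass, and weakened if its difference passed as well. By these rules 170 genes faded (0.883%, 104 after a rise and 66 after a fall), 154 persisted (0.800%, 56 higher and 98 lower), 5 weakened (0.0260%), 6 appeared late (0.0312%) and 2 turned direction (0.0104%). No gene grew. Another 2717 genes (14.1%) passed at 1 time with a difference that did not pass, 2613 of them at 16 h and 104 at 72 h, and these can be called neither faded nor late. The remaining early genes are thus mostly undecided, since the median SE of the difference was 0.35 against 0.25 for each response. Counts of list members below are to be read beside the shares of all genes. These were 7.64% higher and 7.66% lower at 16 h, and 0.546% and 0.863% at 72 h. A count near its share does not set a list apart. Doxorubicin and PBS arrays did not overlap for 36.0% of all genes at 16 h and for 26.4% at 72 h. The genes named as the largest of a class were chosen among those without overlap at the time of their call. For them the lack of overlap stated below was fixed by the choice.

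These counts rest on single arrays. Leaving out 1 array at a time gave 28 to 1026 genes for the difference, 27 to 942 faded and 0 to 438 persisted genes, with the most faded without doxorubicin replicate 3 of 16 h and the most persisted without PBS replicate 4 of 72 h. The difference passed for 1026 genes without doxorubicin replicate 3 of 16 h and for 569 without PBS replicate 4 of 72 h. It passed for 176 without doxorubicin replicate 1 of 16 h, for 80, 50 and 69 without doxorubicin replicates 2, 3 and 4 of 72 h, and for 28 to 45 without any of the other 6. At 72 h 1440 genes passed without PBS replicate 4, 640 without doxorubicin replicate 1 of 16 h, 692 without doxorubicin replicate 2 of 72 h, and between 0 and 111 without PBS replicates 1, 2 or 3 of 16 h, PBS replicates 2 or 3 of 72 h or doxorubicin replicates 3 or 4 of 72 h. At 16 h the count fell to between 1494 and 1756 without any PBS array or doxorubicin replicate 2 of 16 h. All 186 differences kept their sign under every one of these omissions, which their selection on the same arrays largely fixed in advance. As few as 27 of the 186 passed again, namely without PBS replicate 3 of 72 h. Without the 2 arrays of 16 h whose genotype characteristic differs from the title, the difference passed for 39 genes, and among arrays of 1 Y status within each time for 2771. With each array divided by its median, 59 genes were higher and 197 lower at 72 h, and 34 higher and 93 lower for the difference. That scaling moved the median change of all genes at 72 h to -0.18.

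**Figure D1:**
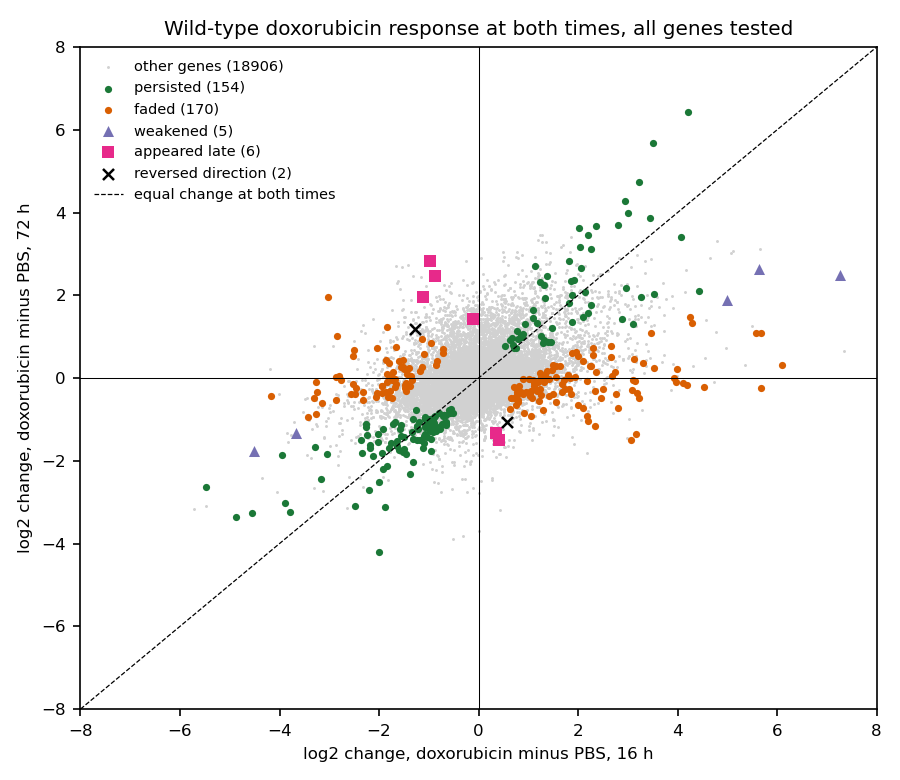
Doxorubicin minus PBS at 16 h (horizontal axis, log2) against the same at 72 h (vertical axis, log2) for the 19243 genes tested, coloured by class. Of the 170 faded genes, 12 had a change of at least 2-fold at 72 h, persisted genes (154) lie along the diagonal, and the 6 late genes lie near 0 at 16 h or on the other side of it.

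Many p53 targets rose at 16 h, and some of them were shown to fade. Of 38 measured members, 21 rose and 1 fell at 16 h, 2 were still raised at 72 h, 8 faded and 12 were undecided. The median change of the list was 1.57 at 16 h and 0.44 at 72 h, against -0.02 and -0.07 over all genes, and 31 of the 38 had a smaller change at 72 h. The mean level of the 38 genes was 0.82 to 0.84 on the PBS arrays and 2.44 to 2.59 on the doxorubicin arrays of 16 h. At 72 h it was 0.48 to 0.80 on the PBS arrays and 1.06 to 1.31 on the doxorubicin arrays, so the groups did not overlap at either time.

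Promoter letters of the p53 targets are shown because these genes moved together. Windows of 300 bases, from 250 before to 50 after each start, came from RefSeq on GRCm38.p6. A p53 decamer was searched on both strands. It was found in 28.2% of the windows of the list (11 of 39, covering 29 of the 38 genes) and in 8.36% of all 32851 windows. A match describes letters and is not evidence of binding. The stretches below run 5′ to 3′ with the decamer in capitals and 10 bases on either side.
Bax, chr7:45467080-45467109, minus strand: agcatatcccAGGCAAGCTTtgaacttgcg
Aen, chr7:78895927-78895956, plus strand: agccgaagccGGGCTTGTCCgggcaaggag
Mdm2, chr10:117710925-117710954, minus strand: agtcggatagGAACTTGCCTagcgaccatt
Cdkn1a, chr17:29090896-29090947, plus strand: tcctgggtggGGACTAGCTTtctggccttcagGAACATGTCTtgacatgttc
Spc25, chr2:69206366-69206395, minus strand: cttcattctgGGGCAAGCCCttctacttca
The first 3 belong to p53 targets that faded, Cdkn1a to a target that was not shown to fade, and Spc25 to a gene outside the p53 list that faded. The Bax match begins 201 bases and the Mdm2 match 186 bases before the start.

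Among the effectors, Bax encodes the pore-forming protein of the mitochondrial route to apoptosis. Its level was 2.58, 2.47 and 2.59 on PBS and 4.11, 4.16 and 4.06 on doxorubicin replicates 1, 2 and 3 of 16 h, and 2.12, 1.92 and 1.98 on PBS and 2.46, 2.3 and 2.15 on doxorubicin replicates 2, 3 and 4 of 72 h. All 3 doxorubicin arrays of 16 h lay above every other array, and the 72 h groups were separated by a small gap. The change was 1.56 ± 0.14 at 16 h and 0.30 ± 0.14 at 72 h, and the difference was -1.26 ± 0.19 (adjusted p = 0.0188, limma). Aen, which encodes an apoptosis-enhancing nuclease, had 5.32, 5.44 and 5.57 on PBS and 7.24, 6.86 and 6.75 on doxorubicin at 16 h, then 5.30, 5.09 and 4.87 and 4.74, 4.60 and 4.74 at 72 h. Doxorubicin arrays were the highest at 16 h and the lowest at 72 h. The 16 h change was 1.5 ± 0.17, the 72 h change was -0.39 ± 0.17, which did not pass (adjusted p = 0.224), and the difference was -1.90 ± 0.25 (adjusted p = 0.0109). Mdm2, whose product ubiquitinates p53 and so closes a feedback loop, changed by 1.03 ± 0.19 at 16 h and -0.42 ± 0.19 at 72 h, with a difference of -1.45 ± 0.27 (adjusted p = 0.0395).

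Not every p53 target that faded promotes death. Bcl2l1, which encodes the survival protein Bcl-xL, had 3.98, 4.46 and 4.2 on PBS and 6.28, 6.70 and 6.54 on doxorubicin at 16 h, and 4.63, 4.45 and 4.64 and 5.0, 5.44 and 4.98 at 72 h. Its groups did not overlap at either time, yet the change shrank from 2.3 ± 0.19 to 0.57 ± 0.19 (difference -1.73 ± 0.27, adjusted p = 0.0194). The death receptor gene Tnfrsf10b went from 2.26 to 0.30 (difference -1.96 ± 0.40, adjusted p = 0.0493). Gtse1, Ckap2 and Eda2r, the other faded members, were not well above background in PBS at 16 h. They were at least 18.5-fold, 3.07-fold and 3.49-fold higher with doxorubicin at 16 h, and Gtse1 was not well above background in either group at 72 h. Phlda3, which encodes an inhibitor of Akt, and Plk2, a polo-like kinase gene, persisted with changes of 3.09 and 2.20 at 16 h and 1.31 and 1.57 at 72 h. For Cdkn1a, the p21 cell cycle inhibitor, the changes were 3.09 ± 0.48 and 1.97 ± 0.48 and the 95% interval of the difference was -2.62 to 0.39, so neither fading nor persistence was shown. Leaving out 1 array at a time gave 2 to 17 faded members, 2 without PBS replicate 3 of 16 h or PBS replicates 2 or 3 of 72 h, 3 or 4 without any of the other arrays except doxorubicin replicates 1 and 3 of 16 h and PBS replicate 4 of 72 h, and 17 without doxorubicin replicate 3 of 16 h. Without PBS replicate 4 of 72 h, 9 members passed as higher at 72 h in place of 2.

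Among faded genes that had risen and were well above background on all 12 arrays, the largest difference was that of Spc25, which encodes a subunit of the Ndc80 kinetochore complex. The probe lies on chromosome 2, 69031953 to 69032012 (minus strand, mm9). Its level was -1.70, -1.32 and -1.71 on PBS and 3.06, 1.95 and 2.60 on doxorubicin at 16 h, and -0.74, -0.98 and -0.80 and -0.95, -0.96 and -0.97 at 72 h. Only the 3 doxorubicin arrays of 16 h were raised, and the 6 arrays of 72 h lay close together. The change was 4.11 ± 0.25 at 16 h (17.3-fold) and -0.12 ± 0.25 at 72 h, with a difference of -4.23 ± 0.35 (95% interval -5.0 to -3.47, adjusted p = 0.00123). The difference passed in all 27 other analyses run. Of 39 measured members of the cell cycle list, 6 rose at 16 h (7.64% of all genes) and 4 fell at 72 h (0.863% of all genes). Spc25 was the only member shown to fade, and 8 were undecided. The 6 included replication genes, such as Mcm7 with a rise of 1.55 and Pcna with 0.90. Mitotic genes fell at 72 h, such as Prc1 (-1.88 ± 0.38) and Birc5 (-1.76 ± 0.37). Without PBS replicates 2 or 3 or doxorubicin replicates 3 or 4 of 72 h, 0 members passed as lower at 72 h, without any PBS array of 16 h 1 did, and without doxorubicin replicate 2 of 16 h 2 did. Without PBS replicate 1 of 16 h, 3 members passed as higher at 16 h in place of 6.

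Some genes of glucocorticoid signalling and of the circadian clock rose at 16 h and faded. Fkbp5, a co-chaperone gene induced by glucocorticoids, had 0.55, 1.14 and 2.0 on PBS and 4.46, 4.08 and 4.56 on doxorubicin at 16 h, and 2.90, 2.70 and 2.41 and 2.14, 2.98 and 2.66 at 72 h. The doxorubicin arrays of 16 h were the 3 highest, and the groups of 72 h overlapped. The PBS level of Fkbp5 was higher at 72 h than at 16 h, with means of 2.67 and 1.23. Its difference of responses includes this shift. The change was 3.14 ± 0.34 at 16 h and -0.075 ± 0.34 at 72 h, with a difference of -3.21 ± 0.48 (adjusted p = 0.0185). Zbtb16, a zinc finger transcription factor gene that glucocorticoids also induce, had 2.08, 2.49 and 2.88 on PBS and 5.16, 5.45 and 5.23 on doxorubicin at 16 h. At 72 h it read 5.84, 5.72 and 4.55 on PBS and 5.15, 4.62 and 4.15 on doxorubicin. Its PBS level was thus higher at 72 h than at 16 h on all 3 arrays, and its doxorubicin level was somewhat lower. The difference of responses was -3.53 ± 0.51 (adjusted p = 0.017) and included this shift of the PBS arrays. Pnmt, the enzyme that makes adrenaline from noradrenaline, went from 3.46 ± 0.26 to 1.08 ± 0.26 (difference -2.38 ± 0.36, adjusted p = 0.0186).

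Of 31 measured genes of the glucocorticoid and fasting list, 9 rose and 1 fell at 16 h, 3 rose at 72 h, and these 3 faded. The list's median change was 0.66 at both times. The list also holds Sult1a1, a sulfotransferase gene that persisted (1.81 and 2.83). Of 21 clock genes, 8 rose and 1 fell at 16 h and 2 faded, with list medians of 0.24 and -0.26. At 72 h 0 passed in limma, where 1.41% of all genes did. At an unadjusted p under 0.05, 5 of the 21 passed at 72 h, and so did 4113 of all 19243 genes. Both faded clock genes, Per2 and Gm129 (Ciart), encode repressors of the clock and were not well above background in PBS at 16 h. Per2 read -2.55, -2.44 and -2.07 with doxorubicin at 16 h, at least 2.25-fold higher, and -1.46, -2.06 and -1.86 on PBS and -1.84, -1.11 and -1.07 on doxorubicin at 72 h (adjusted p of the difference 0.0109). Gm129 read -2.37, -2.06 and -3.40 with doxorubicin at 16 h, at least 1.88-fold higher, and -0.072, 0.14 and -0.73 on PBS and -0.57, -1.65 and -2.49 on doxorubicin at 72 h (adjusted p = 0.0172). For both, the PBS level of 72 h was as high as or higher than the doxorubicin level of 16 h. The sources used here do not give the hour of day at which hearts were taken. The faded glucocorticoid genes numbered 0 without PBS replicates 2 or 3 of 72 h and 1 without doxorubicin replicate 2 or PBS replicates 1 or 2 of 16 h, and 10 members of that list passed as higher at 72 h without PBS replicate 4 of 72 h. Faded clock genes numbered 4 without doxorubicin replicate 3 of 16 h or PBS replicate 4 of 72 h and 1 without any other array but doxorubicin replicate 1 of 16 h and doxorubicin replicate 4 of 72 h.

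E-boxes, the letters CACGTG that clock activators bind, were searched on both strands because 2 clock repressors faded. The motif was in 25% of the windows of the clock list (6 of 24, 16 of 21 genes) and in 7.15% of all windows. The Gm129 stretches below, with E-boxes in capitals, begin 116 and 58 bases before the start. No E-box before the start was found for Per2, the other faded repressor, for which a window may be lacking. The Fkbp5 window holds an E-box and no full glucocorticoid response element, which was found in 0.00913% of all windows.
Ciart, chr3:95882329-95882354, minus strand: catctagagtCACGTGttgccggtaa
Ciart, chr3:95882257-95882296, minus strand: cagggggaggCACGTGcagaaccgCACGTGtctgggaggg
Fkbp5, chr17:28486303-28486328, minus strand: aagggccagaCACGTGggcagcggtg

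Genes that fell at 16 h and recovered were of several kinds. Cideb, a lipid droplet protein gene, had 1.51, 1.57 and 1.49 on PBS and 0, -0.54 and -0.99 on doxorubicin at 16 h, and 1.02, 1.24 and 1.19 and 1.60, 1.85 and 2.21 at 72 h. It was lowest on the 3 doxorubicin arrays of 16 h and highest on those of 72 h. The change went from -2.03 ± 0.24 to 0.74 ± 0.24 (adjusted p at 72 h 0.118), and the difference of 2.77 ± 0.34 (adjusted p = 0.00813) passed in all 27 other analyses. Wnt5b, a Wnt ligand gene, had 2.04, 2.21 and 1.91 on PBS and -0.99, -1.67 and -1.08 on doxorubicin at 16 h, and 0.41, 0.32 and 1.28 and 0.23, -0.22 and 0.52 at 72 h. At 72 h the PBS level had itself dropped towards the doxorubicin level and the groups overlapped. Its change went from -3.30 ± 0.29 to -0.49 ± 0.29 (difference 2.81 ± 0.41, adjusted p = 0.017). Adam19, a membrane metalloproteinase gene, went from -2.51 ± 0.33 to 0.67 ± 0.33 (difference 3.18 ± 0.47, adjusted p = 0.017), and Nrp1, a co-receptor of semaphorins and VEGF, from -2.51 ± 0.41 to 0.52 ± 0.41 (difference 3.04 ± 0.58, adjusted p = 0.0424).

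The imprinted noncoding RNA H19 had the largest difference of this group and the widest spread. Its level was 1.71, 0.85 and 1.06 on PBS and -2.29, -1.88 and -1.29 on doxorubicin at 16 h, and -1.24, -0.93 and 1.34 on PBS and 0.84, 1.80 and 2.37 on doxorubicin at 72 h. PBS replicate 4 of 72 h read 1.34, within the doxorubicin range of that time, while the other PBS arrays lay below it. The change was -3.02 ± 0.63 at 16 h and 1.95 ± 0.63 at 72 h, where it did not pass (adjusted p = 0.116), and the difference was 4.97 ± 0.88 (95% interval 3.02 to 6.92, adjusted p = 0.037). Pitpnm3, Spon2 and St8sia5 were not well above background with doxorubicin at 16 h and were at least 3.83-fold, 5.63-fold and 7.04-fold lower than with PBS. The matrix protein gene Spon2 had a difference with an adjusted p of 0.0412. Among genes with a bound that rose and faded, Tal2, a helix-loop-helix transcription factor gene, was at least 13.1-fold higher at 16 h. Gfra2, a receptor of neurturin, went from 3.1 to -0.036 (adjusted p of the difference 0.0188).

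Pdxp, a pyridoxal phosphate phosphatase gene, had -1.5, -1.56 and -1.70 on PBS and -0.13, 0.92 and 1.03 on doxorubicin at 16 h, and -1.67, -1.19 and -1.71 and -2.08, -2.61 and -3.0 at 72 h. Its doxorubicin arrays were the highest at 16 h and the lowest at 72 h, with changes of 2.20 ± 0.32 and -1.04 ± 0.32 and a difference of -3.24 ± 0.45 (adjusted p = 0.0153). The 72 h fall did not pass (adjusted p = 0.105). Among genes that did pass at both times, only 9330179D12Rik and Pigw changed direction. Pigw, an enzyme gene of GPI anchor synthesis, went from 0.57 to -1.05, and 9330179D12Rik from -1.28 to 1.19.

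Across the named genes, 33 differences passed. Without single arrays or under other processing the direction of these 33 did not turn, which their selection on the same arrays largely fixed in advance. The call was lost most often by Hmox1, which passed in 10 of 27 other analyses, and by Nrp1, Bik and Cacnb2, which passed in 11, 11 and 11. The highest adjusted p among them was 0.0667 for Aen, 0.0892 for Bax, 0.0638 for Fkbp5, 0.0593 for Zbtb16 and 0.127 for H19. For Bax the call was lost without any PBS array or doxorubicin replicate 2 of 16 h, PBS replicates 2 or 3 of 72 h, or doxorubicin replicate 3 of 72 h.

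**Figure D2:**
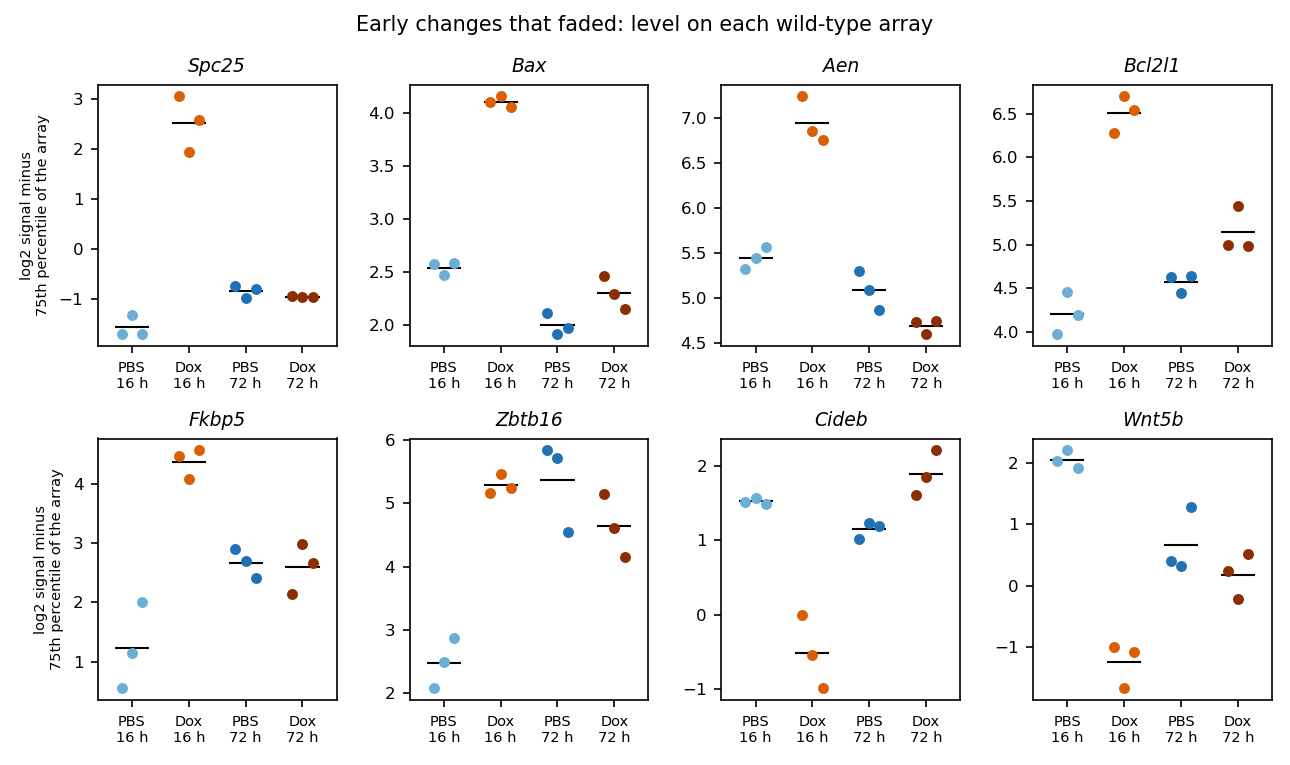
Level on each of the 12 arrays (vertical axis, log2 signal minus the 75th percentile of the array) in the 4 groups (horizontal axis) for 8 genes whose 16 h change faded. Points are arrays and bars are group means. For Spc25 the doxorubicin arrays of 16 h read 1.95 to 3.06 while the 6 arrays of 72 h read -0.98 to -0.74. For several of these genes, among them Wnt5b, Zbtb16 and Fkbp5, the PBS level itself differed between 16 h and 72 h.

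Iron handling genes held large changes that persisted. Tfrc, the transferrin receptor through which cells take up iron, had 3.68, 3.16 and 3.78 on PBS and -0.36, -1.64 and -1.99 on doxorubicin at 16 h, and 1.44, 1.32 and 1.95 and -1.74, -2.17 and -1.43 at 72 h. Every doxorubicin array lay far below every PBS array of its time. The change was -4.87 ± 0.39 at 16 h (29.3-fold lower) and -3.35 ± 0.39 at 72 h (10.2-fold lower, adjusted p = 0.00996). The difference of 1.52 ± 0.55 did not pass (adjusted p = 0.227), and its 95% interval of 0.32 to 2.73 leaves room for a partial return. Alas1, the first enzyme of haem synthesis, read 7.84, 7.65 and 7.94 on PBS and 5.77, 5.82 and 5.45 on doxorubicin at 16 h, and 7.35, 7.03 and 6.86 and 5.34, 5.17 and 5.08 at 72 h. Its groups were far apart at both times, with changes of -2.13 ± 0.18 and -1.88 ± 0.18 and an interval of the difference of -0.30 to 0.80.

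Of 26 iron genes, 4 rose and 3 fell at 16 h, 3 rose and 3 fell at 72 h, and 4 persisted. Over all genes 7.64% rose and 7.66% fell at 16 h, 0.546% rose and 0.863% fell at 72 h, and 0.800% persisted. The other persistent members rose: Cp, the ferroxidase ceruloplasmin (1.09 and 1.64), and Slc25a28, a mitochondrial iron importer gene (0.70 and 0.81). Steap3, an endosomal ferrireductase gene, fell at 72 h (-1.31 ± 0.22) with a 16 h change of -0.67 ± 0.22, and its difference did not pass. Hmox1, haem oxygenase, weakened. Its level was -0.62, -0.46 and -0.82 on PBS and 5.49, 5.68 and 3.82 on doxorubicin at 16 h, and -0.80, -0.85 and -0.43 and 2.3, 1.45 and 2.06 at 72 h. Doxorubicin arrays were above all PBS arrays at both times, and those of 16 h above those of 72 h. The change fell from 5.63 ± 0.42 to 2.63 ± 0.42 (difference -3.0 ± 0.60, 95% interval -4.32 to -1.68, adjusted p = 0.0481). The persistent iron genes numbered 0 without PBS replicate 2 of 72 h, 1 without PBS replicate 3 or doxorubicin replicate 3 of 72 h, and 2 without doxorubicin replicate 4 of 72 h. Tfrc itself kept its 72 h call in 24 of 27 other analyses.

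A few antioxidant and drug-metabolising enzymes also stayed up. Of 42 genes of the NRF2 and antioxidant list, 9 rose at 16 h and 6 at 72 h, 4 persisted and Hmox1 alone weakened, with medians of 0.36 and 0.34. The persistent members were Gclm, the modifier subunit of glutathione synthesis (1.87 and 1.35), and the glutathione transferase genes Gsta3 (2.07 and 2.66), Gstm1 (0.90 and 1.06) and Gstm3 (0.77 and 1.14). Near-identical paralogs among the glutathione transferases can share probe signal. Gsta3 read -1.69, -2.85 and -2.61 on PBS and -1.01, 0.95 and -0.88 on doxorubicin at 16 h, and -1.18, -1.59 and -0.46 and 0.92, 1.96 and 1.88 at 72 h. The groups did not overlap at either time, and the interval of the difference was -1.09 to 2.28. Txnrd1, thioredoxin reductase, rose by 1.63 at 16 h and had -0.045 at 72 h, where doxorubicin replicate 4 had no value. Of 46 xenobiotic metabolism genes, 6 rose at 16 h, 5 at 72 h and 3 persisted, and the list's median was 0.12 and 0.34. The shares of all genes were 7.64%, 0.546% and 0.800%. Fmo2, a flavin monooxygenase gene, went from 2.04 ± 0.61 to 3.17 ± 0.61 with an interval of -0.78 to 3.04.

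Among these enzymes single arrays decided the calls. Without doxorubicin replicates 3 or 4 or PBS replicates 2 or 3 of 72 h, 0 members of either list passed at 72 h. Without PBS replicate 4 of 72 h the xenobiotic list had 15 members raised at 72 h in place of 5, and without doxorubicin replicate 1 of 16 h the NRF2 list had 10 in place of 6. Without any PBS array of 16 h, 1 or 2 members of either list passed at 72 h. An antioxidant response element, TGACNNNGC on either strand, was in 27.1% of the windows of the NRF2 list (13 of 48, 36 of 42 genes) and in 12.4% of all windows. The Gsta3 match, in capitals, is shown as that of the persistent member with the largest change.
Gsta3, chr1:21240454-21240482, plus strand: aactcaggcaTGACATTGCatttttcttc

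The other persistent genes with the largest changes included secreted factors and adhesion genes. Apod, a lipid-binding lipocalin gene, had -1.21, -1.53 and -1.67 on PBS and 1.66, 2.54 and 1.70 on doxorubicin at 16 h, and -0.58, -0.80 and -0.78 and 2.0, 4.11 and 3.32 at 72 h. Every doxorubicin array was above every PBS array, with changes of 3.44 ± 0.44 and 3.86 ± 0.44 and an interval of the difference of -0.95 to 1.80. Apln, the gene of the peptide apelin that supports contraction of the heart, had 2.15, 1.83 and 1.17 on PBS and 0.52, -0.47 and -0.92 on doxorubicin at 16 h. At 72 h it read 1.03, 0.91 and 1.92 on PBS and -2.13, -3.46 and -3.19 on doxorubicin. The doxorubicin arrays of 72 h were the lowest of the 12, and the change went from -2.01 ± 0.46 to -4.21 ± 0.46. The difference of -2.20 ± 0.65 did not pass (adjusted p = 0.144), so growth was not shown, though the 95% interval of -3.64 to -0.77 lay below 0. Lingo3 (-3.88 and -3.02), Itga9, an integrin subunit gene (-1.92 and -2.19), and D0H4S114 (-2.0 and -2.50) stayed lower. Mylip, a ubiquitin ligase gene for the LDL receptor (1.87 and 2.02), and Aim1 (1.91 and 2.38) stayed higher. The 72 h call was kept by Apln in 25, by Apod in 23, by Itga9 in 16 and by Aim1 in 15 of 27 other analyses.

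**Figure D3:**
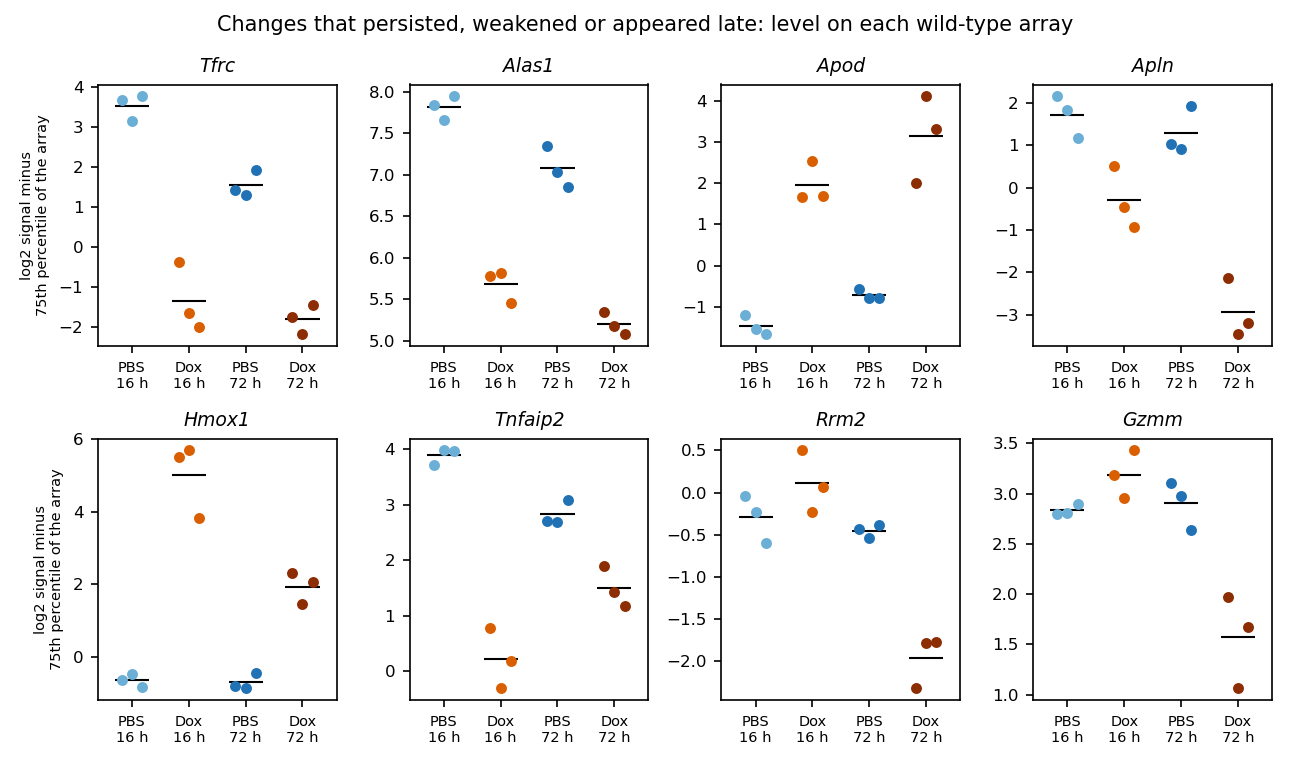
Level on each of the 12 arrays (vertical axis, log2 signal minus the 75th percentile of the array) in the 4 groups (horizontal axis) for 8 genes that persisted, weakened or appeared late. Points are arrays and bars are group means. Tfrc and Alas1 were lower with doxorubicin at both times, Hmox1 was higher at both times and less so at 72 h, and Rrm2 was lower at 72 h.

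Acute phase and cytokine genes held both weakening and persistence. Of 38 measured members, 9 rose and 2 fell at 16 h, 6 rose and 1 fell at 72 h, 3 persisted and 2 weakened, with medians of 0.80 and 1.51. Saa3, an acute phase apolipoprotein gene, was not well above background in PBS at 16 h and was at least 36.9-fold higher with doxorubicin. At 72 h it was well above background on 1 of 3 doxorubicin arrays, and the adjusted p of the difference was 0.017. Tnfaip2, a gene induced by tumour necrosis factor in other cells, fell instead, with 3.72, 3.98 and 3.97 on PBS and 0.78, -0.31 and 0.18 on doxorubicin at 16 h and 2.71, 2.69 and 3.09 and 1.89, 1.42 and 1.18 at 72 h. Its groups did not overlap, and the change went from -3.67 ± 0.28 to -1.33 ± 0.28 (difference 2.34 ± 0.39, adjusted p = 0.0283). Persistent members were the chemokine genes Cxcl14 (3.52 and 2.02) and Ccl8 (at least 6.32-fold higher at 16 h), and Cfb, complement factor B, at least 5.31-fold higher at 16 h and 5.04-fold at 72 h. The complement genes C3 and C4b passed at 72 h only, with 2.91 ± 0.55 and 3.29 ± 0.52 against 0.79 ± 0.55 and 1.28 ± 0.52 at 16 h, and their differences did not pass.

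Some neutrophil markers moved with these genes. S100a9 read -3.09, -5.33 and -4.01 on PBS and 1.36, 0.34 and -1.52 on doxorubicin at 16 h, and -5.90, -5.44 and -3.17 and 0.039, 2.18 and 2.57 at 72 h. It passed as higher at both times, but only 1 of 3 PBS arrays of each time was well above background, so the size of the change is not fixed. Its partner S100a8 was at least 3.43-fold higher at 16 h and 12.4-fold at 72 h. Both encode calprotectin, which is abundant in neutrophils. Of 14 neutrophil markers on the array 8 were tested, 2 rose at 16 h and 3 at 72 h, and the list's median change was 1.56 and 2.27. Csf3r, a receptor gene of neutrophils, and Elane, the neutrophil elastase gene, were well above background on all 12 arrays and had -0.017 and -0.03 at 16 h and -0.11 and -0.056 at 72 h. The defining granule genes Mpo, Ngp, Ltf, Mmp8 and Mmp9 and the receptor gene Cxcr2 were well above background on 0 of 12 arrays. The summed level of the list was 6.42 to 6.47 on PBS and 6.17 to 7.19 on doxorubicin arrays of 16 h. At 72 h it was 6.78 to 7.99 on PBS and 7.09 to 7.89 on doxorubicin arrays. Csf3r made up most of this sum, with 6.32 to 6.35 on the PBS arrays of 16 h. The mean level of the 8 tested genes was -1.66 to -1.12 on PBS and -0.56 to 0.88 on doxorubicin arrays of 16 h. At 72 h this mean was -1.6 to -1.05 and 0.31 to 1.82, so the groups did not overlap at either time. It includes genes not well above background in some groups. Macrophage markers had medians of 0.29 and 0.87, and 0 of 21 passed at either time in limma, with 1 and 0 at an unadjusted p under 0.05. The shares of all genes that passed were 15.3% and 1.41%, and 5722 and 4113 of 19243 had an unadjusted p under 0.05. Ccr2 was well above background on 0 arrays. The mean level of the macrophage markers at 72 h was -1.64, -1.76 and 0.89 on PBS replicates 2, 3 and 4. On doxorubicin replicates 2, 3 and 4 it was -1.42, 0.00015 and 1.21. PBS replicate 4 thus lay within the doxorubicin range, and the 72 h change of the macrophage markers stayed undecided. The part of these cells in the cytokine changes was not tested. More cells of a type and more RNA per cell cannot be told apart in these samples. Without doxorubicin replicates 3 or 4 or PBS replicates 2 or 3 of 72 h, 0 cytokine or neutrophil genes passed as higher at 72 h, and without any PBS array of 16 h 2 cytokine genes did. Without PBS replicate 4 or doxorubicin replicate 2 of 72 h the cytokine count was 14 and 12.

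Few genes appeared late. Rrm2, a subunit of ribonucleotide reductase, had -0.037, -0.23 and -0.60 on PBS and 0.50, -0.23 and 0.07 on doxorubicin at 16 h, and -0.43, -0.54 and -0.39 and -2.32, -1.79 and -1.78 at 72 h. The 3 doxorubicin arrays of 72 h were the lowest of the 12. The change was 0.40 ± 0.23 at 16 h and -1.51 ± 0.23 at 72 h, with a difference of -1.91 ± 0.33 (adjusted p = 0.0331). Gzmm, a granzyme gene, had 2.80, 2.80 and 2.90 on PBS and 3.18, 2.95 and 3.43 on doxorubicin at 16 h, and 3.1, 2.97 and 2.63 and 1.98, 1.07 and 1.67 at 72 h. Again only the doxorubicin arrays of 72 h stood apart, with changes of 0.35 ± 0.23 and -1.33 ± 0.23 (adjusted p of the difference 0.0466). Egr2, an immediate early zinc finger gene, was well above background in the doxorubicin group of 72 h alone, where it was at least 1.53-fold higher (adjusted p of the difference 0.0378).

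The remaining late genes were chosen after their values were seen. Derl3, which encodes a protein of endoplasmic reticulum degradation, went from -0.97 ± 0.37 to 2.83 ± 0.37 (difference 3.80 ± 0.52, adjusted p = 0.013), Pde6h from -1.12 to 1.96 and Fxyd7 from -0.11 to 1.43. Ccne1, the cyclin E1 gene, passed in the difference alone. It read -0.53, -0.65 and -0.54 on PBS and 1.11, -0.10 and -0.14 on doxorubicin at 16 h, and -0.37, -0.35 and -0.41 and -1.34, -1.64 and -1.56 at 72 h, so doxorubicin arrays were above PBS at 16 h and below at 72 h (difference -2.0 ± 0.40, adjusted p = 0.0484). Other genes passed at 72 h only but were not shown to differ from 16 h, such as Lipe, the gene of hormone-sensitive lipase, which went from 0.24 to 1.47. The late genes numbered 164 without PBS replicate 4 of 72 h, 20 without doxorubicin replicate 3 and 9 without doxorubicin replicate 1 of 16 h. They numbered 0 to 3 without any other array except doxorubicin replicate 2 of 72 h, without which there were 7. The Egr2 call was kept in 12 of 26, Rrm2's in 14 and Gzmm's in 11 of 27 other analyses.

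The interferon response was the largest gene group that stayed undecided. All 41 measured members were higher with doxorubicin at 16 h and 40 at 72 h, with medians of 2.03 and 1.12. At 16 h 25 rose, whereas 0 passed at 72 h or in the difference in limma, where 1.41% and 0.967% of all genes passed. At an unadjusted p under 0.05 the members numbered 23 and 9, and all genes 4113 and 2886 of 19243. Examples are Ifit1, an inhibitor of viral translation (3.41 ± 0.39 and 1.48 ± 0.39), Irf7, the transcription factor that drives the response (3.21 ± 0.43 and 1.52 ± 0.43), and Isg15, a ubiquitin-like modifier (2.15 ± 0.42 and 1.12 ± 0.42). The mean level of the list was -0.47, -1.18 and -0.93 on PBS and 1.71, 1.72 and 0.40 on doxorubicin at 16 h. At 72 h it was -1.05, -1.23 and -0.12 on PBS and -0.21, 0.39 and 0.66 on doxorubicin. PBS replicate 4 of 72 h, at -0.12, overlapped doxorubicin replicate 2, and doxorubicin replicate 3 of 16 h lay below its group. Without PBS replicate 4 of 72 h, 14 members passed as higher at 72 h. The 16 h count was 16 without doxorubicin replicate 1 of 16 h, 13 without doxorubicin replicate 2, and 13 to 15 without any PBS array of 16 h.

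Promoters of this list are shown because the members moved together at 16 h. An interferon-stimulated response element, searched on both strands, was in 41% of its windows (16 of 39, 32 of 41 genes) against 3.44% of all windows. The matches are in capitals, and those of Ifit1 lie on the opposite strand.
Isg15, chr4:156200865-156200906, minus strand: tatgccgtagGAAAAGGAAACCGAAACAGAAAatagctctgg
Ifit1, chr19:34640775-34640823, plus strand: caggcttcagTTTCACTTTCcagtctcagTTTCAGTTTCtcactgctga

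Many calcium handling and conduction genes fell at 16 h and were mostly undecided later. Of 43 measured members 20 fell at 16 h and 4 at 72 h, 3 persisted and 1 faded, with medians of -0.90 and -0.61. Casq2, the calcium store of the sarcoplasmic reticulum (-1.07 and -1.19), Kcnd2, a subunit of the transient outward potassium channel (-1.80 and -1.68), and Srl, sarcalumenin (-1.34 and -1.30), persisted. Cacnb2, the beta subunit of the L-type calcium channel, faded. Its level was 0.82, 1.25 and 1.15 on PBS and -0.95, -1.07 and -0.85 on doxorubicin at 16 h, and 0.62, 0.70 and 1.34 and 0.35, 0.42 and 0.79 at 72 h. The groups overlapped at 72 h only, and the change went from -2.03 ± 0.22 to -0.37 ± 0.22 (difference 1.66 ± 0.31, adjusted p = 0.0409). Of 40 sarcomere and Z disc genes 11 fell at 16 h and 1 at 72 h. That gene, Fhl2, a LIM protein of the Z disc, persisted (-1.58 and -1.22). The cardiomyocyte markers had medians of -0.17 and -0.33. Without PBS replicates 2 or 3 or doxorubicin replicates 3 or 4 of 72 h, 0 calcium genes passed at 72 h, and 0 to 2 passed without a PBS array of 16 h. Without PBS replicate 4 or doxorubicin replicate 2 of 72 h 10 and 8 did. At 16 h the calcium count was 12 without PBS replicates 2 or 3, and the sarcomere count was 5 or 6 without these or doxorubicin replicate 2 of 16 h.

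Nppb, the natriuretic peptide gene that marks cardiac stress, had a large difference that did not pass. It read 5.58, 6.54 and 6.97 on PBS and 3.99, 0.16 and 2.37 on doxorubicin at 16 h, and 6.67, 6.48 and 5.42 and 5.63, 6.51 and 7.10 at 72 h. All doxorubicin arrays of 16 h were below their PBS arrays but differed among themselves, and the groups overlapped at 72 h. The change was -4.19 ± 0.81 at 16 h and 0.22 ± 0.81 at 72 h, and the difference of 4.41 ± 1.15 had an interval of 1.88 to 6.95 and an adjusted p of 0.105.

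Some genes of ribosome production rose modestly at 16 h. Of 62 measured members 15 rose and 3 fell at 16 h, 0 passed at 72 h and 3 faded, with medians of 0.40 and -0.09. At an unadjusted p under 0.05, 11 of the 62 passed at 72 h, and so did 4113 of all 19243 genes. The faded members were Heatr1 (0.82 and -0.19) and Utp20 (0.80 and -0.53), which process pre-ribosomal RNA, and Taf1c (1.25 and 0.017), a subunit of the RNA polymerase I selectivity factor. Their differences had adjusted p-values of 0.0481, 0.0481 and 0.0412. Without doxorubicin replicate 3 of 16 h 7 members faded, and 0 faded without any other array except doxorubicin replicate 1 of 16 h and PBS replicate 4 of 72 h. The 16 h count was 4 to 9 without any PBS array or doxorubicin replicate 1 of 16 h. Few single genes of the respiratory complexes passed after adjustment. Of 87 members 3 fell at 16 h and 1 at 72 h, namely Cox11 (-0.97 ± 0.19), a copper chaperone gene of complex IV. The list's median went from -0.13 to -0.39, 81 members had the same sign at both times, and 2 were higher with doxorubicin at 72 h. In limma 37 of the 87 had an unadjusted p under 0.05 at 72 h, and so did 4113 of all 19243 genes. Of 38 apoptosis regulators tested, 9 rose and 4 fell at 16 h, where 7.64% and 7.66% of all genes did. Of these 4 faded, Bax, Bcl2l1, Tnfrsf10b and the lowered BH3-only gene Bik (-1.40 ± 0.22 and 0.24 ± 0.22, adjusted p of the difference 0.0437). Leaving out 1 array at a time gave 0 to 7 faded apoptosis regulators, 7 without doxorubicin replicate 3 of 16 h and 0 without doxorubicin replicate 2 or PBS replicates 1 or 3 of 16 h or PBS replicates 2 or 3 of 72 h.

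**Figure D4:**
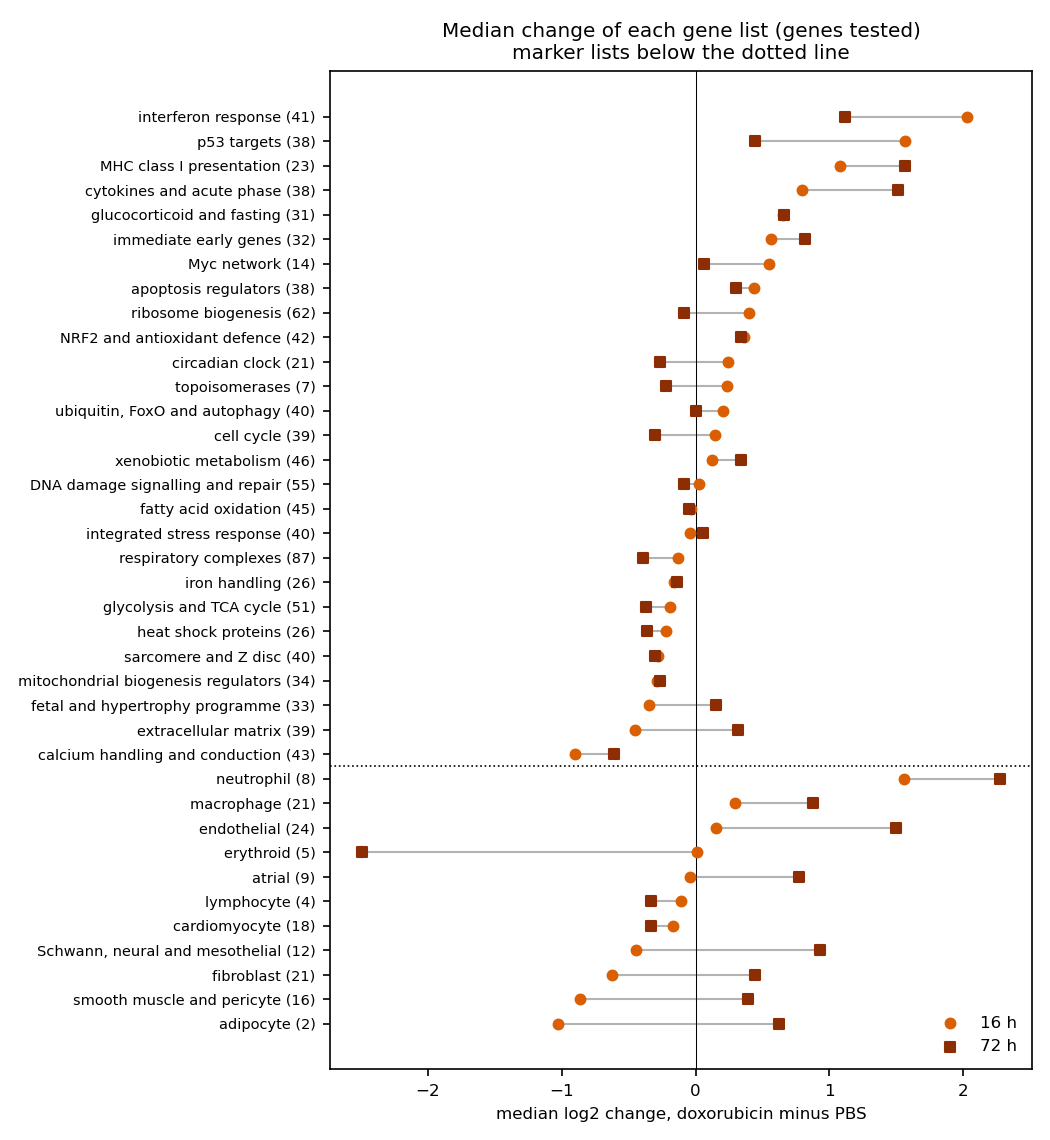
Median change of the members of each gene list (horizontal axis, log2, doxorubicin minus PBS) at 16 h and 72 h. The p53 list went from 1.57 to 0.44 and the interferon list from 2.03 to 1.12, while the endothelial markers went from 0.15 to 1.5.

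Genes of the topoisomerase list, which also holds the tyrosyl-DNA phosphodiesterase genes Tdp1 and Tdp2, did not pass. Top2b, the type II topoisomerase of nondividing cells, read 4.03, 4.23 and 4.04 on PBS and 4.39, 4.38 and 4.15 on doxorubicin at 16 h, and 3.63, 3.35 and 3.65 and 3.41, 3.25 and 3.29 at 72 h. The levels were lower on the 72 h arrays in both treatments, and the changes were 0.21 ± 0.15 and -0.22 ± 0.15. Of 7 genes of this list tested, Tdp1 and Tdp2 among them, 0 passed at either time or in the difference in limma. At an unadjusted p under 0.05 the numbers were 2, 1 and 2. With 15.3%, 1.41% and 0.967% of all genes passing, a count of 0 among so few genes does not set them apart.

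Markers of other cell types moved with the 72 h comparison. The 24 endothelial markers had a median change of 0.15 at 16 h and 1.5 at 72 h, and 23 were higher with doxorubicin at 72 h, though 0 passed in limma (17 at an unadjusted p under 0.05). Their mean level at 72 h was 0.95, 0.89 and 3.1 on PBS replicates 2, 3 and 4 and 2.54, 3.34 and 3.37 on doxorubicin, so that PBS replicate 4 lay within the doxorubicin range. Without that array 21 of the 24 passed as higher at 72 h and 9 in the difference. Smooth muscle markers had medians of -0.87 and 0.39, with 3 of 16 lower at 16 h, and fibroblast markers -0.63 and 0.44, with 3 of 21 lower at 16 h. The mean level of the smooth muscle markers was 2.39, 1.91 and 2.01 on PBS and 0.85, 1.45 and 1.36 on doxorubicin at 16 h, and 1.39, 1.43 and 2.51 and 1.78, 2.05 and 2.22 at 72 h. The haemoglobin genes Hba-a1, Hba-a2 and Hbb-b1 of the erythroid list had changes of -2.79, -2.49 and -3.89 at 72 h, none of which passed, and of -1.79, -1.46 and -2.67 without PBS replicate 4. Hba-a1 read -0.15, -0.21 and 2.82 on PBS and -0.20, -2.82 and -2.88 on doxorubicin at 72 h, so that PBS replicate 4 was high and doxorubicin replicates 3 and 4 were low. Without doxorubicin replicate 2 of 72 h Hba-a1 and Hbb-b1 passed as lower, with -3.67 and -5.17. The part of these cell types in the changes reported above was not tested. Of 39 matrix genes 6 rose and 11 fell at 16 h and 1 rose and 1 fell at 72 h, with medians of -0.46 and 0.32. Serpinh1, the collagen chaperone, persisted as lower (-1.31 and -1.47) and Mmp3, a matrix metalloproteinase gene, as higher, at least 6.85-fold at 72 h. The matrix genes lower at 16 h numbered 4 to 7 without any array other than doxorubicin replicate 2 of 72 h, PBS replicate 3 of 72 h or PBS replicate 4 of 72 h.

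**Figure D5:**
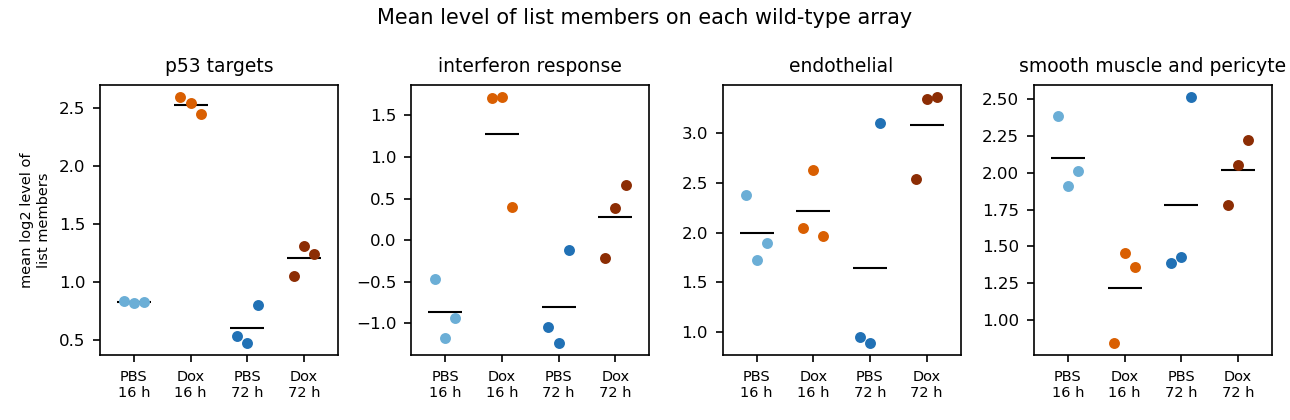
Mean level of 4 gene lists on each of the 12 arrays (vertical axis, log2 signal minus the 75th percentile of the array) in the 4 groups (horizontal axis). Points are arrays. The p53 list separated doxorubicin from PBS at both times, whereas for the interferon and endothelial lists PBS replicate 4 of 72 h lay within the doxorubicin range.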

How the data were processed

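The 12 wild-type arrays of 24 Agilent 1-colour arrays were used. Per the file headers, the deposited scanner files come from Agilent Feature Extraction 10.7.3.1 and give the processed intensity of each spot, background-subtracted and not normalized between arrays. The authors' value table holds a linear ratio of that signal to the array median, as found by setting both side by side, and served as an alternative. Gene names are those of the array files.

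The processed signal was taken as log2 and the array's 75th percentile was subtracted. Between 42.9% and 52.6% of spots on an array exceeded background clearly. Outlier spots (89 to 277 per array) were set to missing, and spots of a probe were averaged. Probes clearly above background on every array of 1 or more of the 4 groups were kept, and each gene was represented by the brightest of them, which gave 19243 genes. A model of the 4 group means was fitted (limma 3.58.1 in R 4.3.3, lmFit and eBayes), with 8 residual degrees of freedom. Benjamini-Hochberg adjustment covered all genes, and an adjusted p under 0.05 counted as passing. For a gene not above background in any array of a group, the bound compares the bright group's mean with a floor, the mean over the dim arrays of whichever was higher, the gene's own signal or the lowest signal of any probe that exceeded background there.

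The members, the 38 gene lists (27 of pathways, 11 of cell type markers) and the naming rule were chosen with earlier results of these data known. Named were, per class and direction, the 5 genes with the largest difference (for persisted genes the largest smaller change) among those above background on all 12 arrays with no overlap between groups, up to 3 genes per direction with a bound, the 3 members of each pathway list with the smallest adjusted p of the difference, and the topoisomerases. Other genes, such as Alas1, Mdm2, Phlda3, Plk2, Cdkn1a, Derl3, Pigw and the further list members given as examples, were chosen after their values were seen. RefSeq promoter windows (GRCm38.p6) were found for 80 of 102 named genes.

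Alternatives changed the scaling, background correction, probe filter, probe summary, blocks, arrays, weights and threshold, and left out each array in turn. On simulated data for the difference of responses on 19243 genes, 1 of 66 changes of log2 size 1, 46 of 67 of size 2 and 59 of 67 of size 3 passed, with 3 false calls.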

Additional observations from a re-analysis of the deposited data

Results flagged for a closer look

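The difference between the 72 h and 16 h responses was itself tested, and 186 genes passed at an adjusted p of 0.05 in limma. The named genes among them are listed with their difference, 72 h change minus 16 h change on the log2 scale, with 3 arrays per group.

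Responses that had risen at 16 h and were lower at 72 h were those of Spc25 (-4.23), Fkbp5 (-3.21), Zbtb16 (-3.53), Pdxp (-3.24), Gfra2 (-3.14), Pnmt (-2.38), Aen (-1.90), Bcl2l1 (-1.73), Bax (-1.26), Utp20 (-1.33), Taf1c (-1.24), Heatr1 (-1.02) and Hmox1 (-3.0). The fitted differences of Gtse1 (-5.77), Saa3 (-4.76), Tal2 (-4.57), Gm129 (-4.52) and Per2 (-2.67) include a group not well above background, so their size is not fixed. Responses that had fallen at 16 h and were less negative or turned at 72 h were those of H19 (4.97), Adam19 (3.18), Nrp1 (3.04), Wnt5b (2.81), Cideb (2.77), Tnfaip2 (2.34), Cacnb2 (1.66) and Bik (1.65). Spon2 (3.74), St8sia5 (2.90) and Pitpnm3 (2.85) were not well above background with doxorubicin at 16 h. Ccne1 (-2.0) passed in the difference alone. A late fall was seen for Rrm2 (-1.91) and Gzmm (-1.69), and a late rise for Egr2 (3.35), which was not well above background in the other 3 groups.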

How the results depend on the processing

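All 186 differences that passed kept their sign under each alternative in which they were measured, which their selection on the same arrays largely fixed in advance. Of 882 alternative values for the 33 named ones, 543 kept the call, 339 lost it and 0 turned. Counts were less stable, and apart from fewer arrays or genes the causes were not tested. Leaving out 1 array at a time gave 1494 to 3887 genes at 16 h, 0 to 1440 at 72 h, 28 to 1026 for the difference, 27 to 942 faded, 0 to 20 weakened, 0 to 438 persisted, 0 to 4 grown, 0 to 51 turned, 0 to 164 late and 1465 to 3196 undecided, and 27 of the 186 differences passed again without PBS replicate 3 of 72 h. Quantile normalization gave 486 genes at 72 h, 233 persisted, 1 grown and 6 turned. Division by the array median gave 1 turned. Normexp background correction gave 437 at 72 h, 9 weakened and 1 turned. With no filter on dim probes there were 1827 genes at 16 h, 25 at 72 h, 40 for the difference, 37 faded, 1 weakened, 14 persisted, 0 turned, 1 late and 1784 undecided. With only probes well above background on all 12 arrays there were 539 at 72 h, 278 persisted and 4 turned, and the mean of kept probes gave 3 weakened. Slide as a block gave 754 at 72 h, 12 weakened, 358 persisted, 8 turned and 16 late. With the 72 h arrays of 1 slide only, 1 weakened, 1 grew, 9 turned and 34 were late. A covariate for Y-linked signal gave 957 at 72 h, 14 weakened, 492 persisted, 5 turned and 12 late. All 24 arrays in the fit gave 4847 at 16 h, 2471 at 72 h, 1153 for the difference, 892 faded, 47 weakened, 919 persisted, 1 grown, 47 turned, 116 late and 4282 undecided. Array weights gave 4809, 2476, 1021, 776, 38, 914, 1, 49, 130 and 4375 in the same order. Without the 2 arrays whose genotype characteristic differs from the title there were 1382 genes at 16 h, 39 for the difference, 34 faded, 3 weakened, 0 turned, 2 late and 1322 undecided. At an adjusted p of 0.01 there were 1122, 7 and 17 genes, 17 faded, 0 weakened, 5 persisted, 0 turned, 0 late and 1102 undecided. An alternative chosen after seeing the data kept arrays of 1 Y status within each time, with a lone doxorubicin array at 16 h assumed to vary like the other groups. It gave 4497, 2844 and 2771 genes, 1723 faded, 158 weakened, 658 persisted, 6 grown, 259 turned and 477 late.

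At 16 h deviations of same-numbered PBS and doxorubicin arrays had correlations of -0.04, -0.13 and 0.11, against -0.17 to 0.27 for unlike numbers. At 72 h these were 0.48, 0.0026 and 0.42, against -0.52 to 0.37. Both wild-type replicate 4 arrays of 72 h lay on slide 4 and the others on slide 3. Replicate numbers were thus not shown to pair the samples at 16 h, and pairing at 72 h was not settled. A replicate block gave 16 genes at 72 h, 32 for the difference, 30 faded, 0 weakened, 13 persisted and 0 late. Depth is limited by signal over background: of the 170 faded genes, 127 were well above background on all 12 arrays and 26 had a group with none above it.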

Other observations

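A few probes differed widely between arrays of 1 group. The brightest kept Foxo3 probe read -5.87, -6.03 and -5.45 on PBS and -0.67, 3.1 and 2.28 on doxorubicin at 16 h, but -0.84, -0.90 and -4.96 on PBS and -0.62, -0.71 and -3.39 on doxorubicin replicates 2, 3 and 4 of 72 h, so both replicate 4 arrays of 72 h were lower than the other arrays of their time. The Esr1 probe was not well above background on the 5 arrays with Ddx3y. It read 0.60 and 1.05 on doxorubicin replicates 2 and 3 of 16 h, and 6.62, -2.06 and -4.37 on doxorubicin replicates 2, 3 and 4 of 72 h. No explanation of these values was tested.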
